A study of Triticum aestivum with 4 samples.

Results

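The miR160, miR167 and miR393 families, which act on auxin response factors and auxin receptors, were taken from the table of known miRNAs as all rows under these 3 family names. They gave 6 of 371 known miRNAs and 3 of 289 families, and each family held 2 rows. The members were miR160a-5p and miR160a-3p, miR167a and miR167e-3p, and miR393-5p and miR393b-3p. All 6 were listed above 0 at all 4 stages. Leaves of wild type winter wheat cultivar Shimai 22, grown in the field without treatment, were sampled at 4 stages: three-leaf plants before winter (three-leaf leaves), dormant plants in winter (winter leaves), plants at spring green-up (green-up leaves) and plants at jointing (jointing leaves). At each stage the RNA of 3 biological replicates was pooled into 1 small RNA library, so these data give no spread between plants and no difference has a replicate check. Each stage was a different date in the season, so stage, temperature, day length and leaf position cannot be told apart. The tables hold miRNAs only, and the leaf label could not be set against marker genes.

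Auxin is read in plant cells by F-box receptors of the TIR1/AFB group, which mark Aux/IAA repressor proteins for breakdown when auxin is bound and so release auxin response factors (ARFs) to act on their target genes. In Arabidopsis miR393 cuts transcripts of the receptors, miR167 cuts transcripts of ARFs that activate genes, and miR160 cuts transcripts of ARFs that mostly repress them. A plant miRNA is cut from a hairpin as a duplex of a 5p and a 3p strand. The guide strand is loaded into an Argonaute protein, and its partner, the miRNA*, is mostly degraded.

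The sequences listed for the 6 miRNAs in the supplementary material are shown 5′ to 3′ with the seed (bases 2 to 8) in capitals, since these strands define the 5p to 3p ratios of the families.
miR160a-5p: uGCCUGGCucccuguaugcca
miR160a-3p: gCGUGCAAggagccaagcaug
miR167a: uGAAGCUGccagcaugaucuga
miR167e-3p: aGGUCAUGcuggaguuucauc
miR393-5p: uUCCAAAGggaucgcauugau
miR393b-3p: uCAGUGCAaucccucuggaau
The guide strands of the 3 families, miR160a-5p, miR167a and miR393-5p, all begin with U, the first base of 42.6% of the 371 known miRNAs. Only miR167a is longer than 21 nt, with 22 nt. No seed was shared between members or with any other known miRNA, and no other known or predicted miRNA overlapped a member over 18 nt or more with at most 2 mismatches. More distant sequences were not sought. Reads were matched to names with up to 2 mismatches, so whether a read could fit both a member and another listed sequence was not tested. They were also not found in any of the 82 hairpins of the predicted miRNAs.

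The strands of each family pair with each other. In the lowest-energy duplex, miR160a-5p and miR160a-3p formed 17 base pairs, 2 of them G-U pairs, with 2 nt left over at each 3′ end. Between miR167a and miR167e-3p there were 19 pairs, again with 2 nt over at each 3′ end. For miR393-5p and miR393b-3p the duplex held 18 pairs and left 1 nt at each 3′ end. Dicer-like enzymes typically leave 2 nt over at each 3′ end of a duplex. In miR167 and miR393 the strands carry different letters in their names, so a shared hairpin is not given by the names. The shared letter of the miR160a strands does not show it either, since a name can pool sequence variants.

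Levels are reads scaled to 1000000 mapped reads of the library (RPM), given by the authors to 1 decimal. The libraries held about 18100000 to 21800000 mapped reads, and 1 read was worth 0.0458 to 0.0552 RPM. Reads behind a level were estimated as the level times the mapped reads. Intervals at 95% were taken from these reads and cover counting error only, not PCR copying or the difference between plants or library preparations. In pooled leaf RNA, fewer cells of a type and less RNA per cell cannot be told apart. The 6 members are 21 or 22 nt long. Whether different sequences were captured equally well was not tested, so levels of different miRNAs and the size of a strand ratio are given as sequenced.

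The miR167 family, with the guide strand miR167a against activating ARFs, was the most abundant of the 3. Its guide strand miR167a had 2044.6 RPM in three-leaf leaves, 2377.5 in winter leaves, 3190.6 in green-up leaves and 4312.8 in jointing leaves. The 4 levels stood in the order of the season, and the counting interval of each step lay above 1. The steps were 1.16-fold in winter (95% Clopper-Pearson interval 1.15 to 1.18), 1.34-fold at green-up (1.33 to 1.36) and 1.35-fold at jointing (1.34 to 1.37). Among the 371 known miRNAs miR167a held rank 5 in jointing and green-up leaves and rank 13 in winter and three-leaf leaves. Its share of the summed RPM of known miRNAs was 2.44% in jointing leaves, against 1.07% in three-leaf leaves. Its partner strand miR167e-3p had 113.1 RPM in three-leaf leaves, 196.1 in winter leaves, 183.5 in green-up leaves and 226.6 in jointing leaves. Here the larger step came in winter, where the level was 1.73-fold that of the three-leaf library (1.65 to 1.83). The green-up level was 0.94-fold the winter one (0.89 to 0.98), a direction that turned under each of the 3 other scalings.

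The guide strand of miR393, which acts on auxin receptors, came second in abundance at the first pair of stages and at jointing. For miR393-5p the levels were 270.4 RPM in three-leaf leaves, 317.8 in winter leaves, 451.3 in green-up leaves and 1273.7 in jointing leaves. The early steps were 1.18-fold (1.13 to 1.22) and 1.42-fold (1.37 to 1.47), and most of the difference fell between green-up and jointing. Its rank among known miRNAs was 17 in jointing leaves, against 42 in three-leaf leaves. The partner strand miR393b-3p was the lowest of the 6, with 6.8 RPM in three-leaf leaves, 2.0 in winter leaves, 4.6 in green-up leaves and 10.9 in jointing leaves. The jointing value rests on 238 estimated reads and the winter value on 41, with a Poisson interval of 1.43 to 2.71 RPM for the winter value.

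The miR160 family, whose guide strand acts on repressing ARFs, had the widest range of the 3. For miR160a-5p the levels were 146.7 RPM in three-leaf leaves, 51.3 in winter leaves, 535.2 in green-up leaves and 763.6 in jointing leaves. The winter library was thus the low point and both spring libraries stood above both earlier ones. In rank among known miRNAs it was 62 at the three-leaf stage, 101 in winter, 25 at green-up and 27 at jointing. The partner strand miR160a-3p did not share this course, with 36.3 RPM in three-leaf leaves, 40.9 in winter leaves, 34.9 in green-up leaves and 19.9 in jointing leaves. It was the only member of the 6 that was not highest at jointing. Its green-up and three-leaf levels did not differ beyond counting error (0.96-fold, 0.86 to 1.07), the only such case among the 36 folds between stages for the 6 members.

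**Figure D1:**
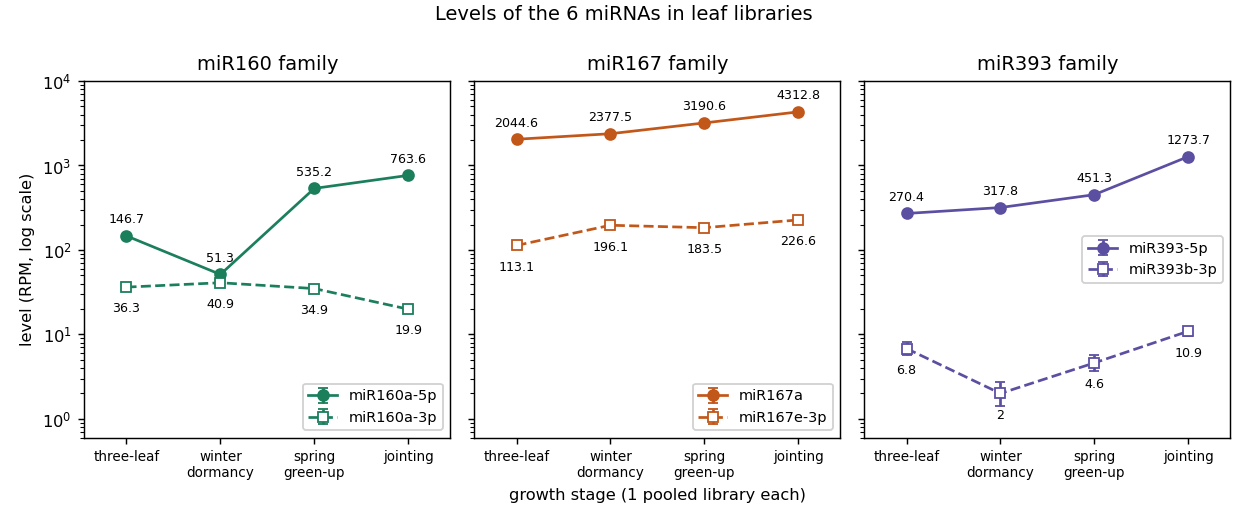
Level of each of the 6 miRNAs in RPM (log scale) at the 4 growth stages, 1 panel per family, with the guide strand as filled circles and its partner as open squares; bars are 95% Poisson intervals on estimated reads and each point carries its value. The guide strands end at their highest values at jointing (763.6, 4312.8 and 1273.7 RPM). At winter dormancy miR160a-5p comes closest to its partner strand but stays above it (51.3 and 40.9 RPM), and miR160a-3p is lowest at jointing (19.9 RPM).

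The width of these courses was read against the 179 known miRNAs above 0 at all 4 stages, whose highest level was a median of 2.19-fold their lowest (quartiles 1.58 and 3.77). For miR160a-5p the highest level was 14.9-fold the lowest, and 13 of the 179 varied more. The range was 5.45-fold for miR393b-3p and 4.71-fold for miR393-5p, with 27 and 33 of the 179 varying more. With 2.11-fold for miR167a, 2.06-fold for miR160a-3p and 2.004-fold for miR167e-3p, the other members lay close to the median. Jointing was the highest stage of 5 of the 6 members, against 33.5% of the 179. A level higher in each library than in the one before was found for 2 of the 6, miR167a and miR393-5p, against 7.82% of the 179. That order rests on the small winter step. With values scaled by the total of known miRNAs, the winter level was below the three-leaf level for miR167a (log2 fold -0.03) and for miR393-5p (-0.01).

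Differences between stages were called at more than 2-fold with more than 5 RPM in at least 1 of the 2 libraries compared. The study asked for the level at any of the 4 stages, which adds 1 call among the members, given beside its value. It also asked for a p-value from a read-sampling model, which was not used here, so these calls are not those of the study. The share of all 371 known miRNAs called the same way is given as background. Unlike the members, many of the 371 were at 0 in at least 1 of the 2 libraries. Over the 205 above 0 in both, 19.0% were called higher at jointing over the three-leaf stage, against 24.8% of the 371. In winter over the three-leaf stage it was 4.72% of 212, against 8.63%. In no comparison was this share above that of the 371. At winter dormancy against the three-leaf stage, 2 of the 6 members were called lower, where 7.82% of known miRNAs were called lower, and 0 higher, where 8.63% were. With 51.3 RPM in winter against 146.7 RPM at the three-leaf stage, miR160a-5p was 2.86-fold lower (2.66 to 3.07). The level of miR393b-3p was 2.0 RPM in winter against 6.8 RPM at the three-leaf stage, 3.40-fold lower (2.39 to 4.95). The members' median log2 fold was 0.19, beside 0.02 over the 212 known miRNAs listed in both libraries. In this comparison the strands of miR160 and those of miR393 thus moved apart, since miR160a-3p was 1.13-fold and miR393-5p 1.18-fold their three-leaf levels, small differences that turned to log2 folds of -0.07 and -0.01 when scaled by the total of known miRNAs.

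At spring green-up against winter dormancy, 1 of the 6 was called higher, where 12.1% of known miRNAs were, and 0 lower, where 18.1% were. This was miR160a-5p, at 535.2 RPM against 51.3 RPM. Its fold was larger than that of 97.6% of the 207 known miRNAs listed in both libraries. For miR393b-3p the level was 4.6 RPM at green-up against 2.0 RPM in winter, 2.30-fold (1.56 to 3.42), which is below 5 RPM in both libraries and is called only with the level read over all 4 (2 of the 6, where 15.4% of known miRNAs were called higher). Per mapped reads neither miR167 strand nor miR393-5p passed 2-fold. The count depends on the scaling, since with values scaled by the total of known miRNAs without miR168 it was 4 of the 6, where 19.9% of known miRNAs were called higher, with miR167a, miR393-5p and miR393b-3p added. The median log2 fold of the members was 0.47, beside -0.11 over the 207.

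At jointing against spring green-up, 2 of the 6 were called higher, where 26.1% of known miRNAs were, and 0 lower, where 9.43% were. Both were strands of miR393. The level of miR393-5p was 2.82-fold higher (2.75 to 2.89), and that of miR393b-3p was 2.37-fold higher, at 10.9 RPM against 4.6 RPM (1.85 to 3.10, so the interval spans 2-fold). For miR160a-5p the step was 1.43-fold (1.39 to 1.46), while miR160a-3p had 19.9 RPM at jointing against 34.9 RPM at green-up, 1.75-fold lower (1.55 to 1.99). Per mapped reads the larger spring step of miR160a-5p came at green-up and that of miR393-5p at jointing, while the spring steps of miR167a were alike. This timing depends in part on the scaling. Without miR168 in the total, the log2 steps at green-up and at jointing were 4.06 and 0.40 for miR160a-5p, 1.10 and 0.32 for miR167a, and 1.18 and 1.38 for miR393-5p.

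Over the whole season, at jointing against the three-leaf stage, 4 of the 6 were called higher, where 24.8% of known miRNAs were, and 0 lower, where 14.6% were. The folds were 5.21 for miR160a-5p (5.01 to 5.41), 4.71 for miR393-5p (4.58 to 4.85), 2.11 for miR167a (2.09 to 2.13) and 2.004 for miR167e-3p (1.91 to 2.11). The last lies on the 2-fold line. The members' median log2 fold was 1.04, beside 0.04 over the 205 known miRNAs listed in both libraries. At spring green-up against the three-leaf stage, 1 of the 6, miR160a-5p, was called higher (3.65-fold, 3.50 to 3.80), where 11.9% of known miRNAs were, and 0 lower, where 16.2% were. Scaled by the total without miR168, 4 of the 6 were called higher here, where 20.2% of known miRNAs were, with miR167a, miR167e-3p and miR393-5p added. At jointing against winter dormancy, 3 were called higher, where 23.7% were, and 1 was called lower, where 16.4% were. The higher ones were miR160a-5p (14.9-fold, 14.0 to 15.9), miR393b-3p (5.45-fold, 3.91 to 7.81) and miR393-5p (4.01-fold, 3.90 to 4.12). The lower one was miR160a-3p, at 19.9 RPM against 40.9 RPM. Its interval, 1.83 to 2.31-fold, spans the 2-fold line, and it was no longer called under any of the 3 other scalings.

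**Figure D2:**
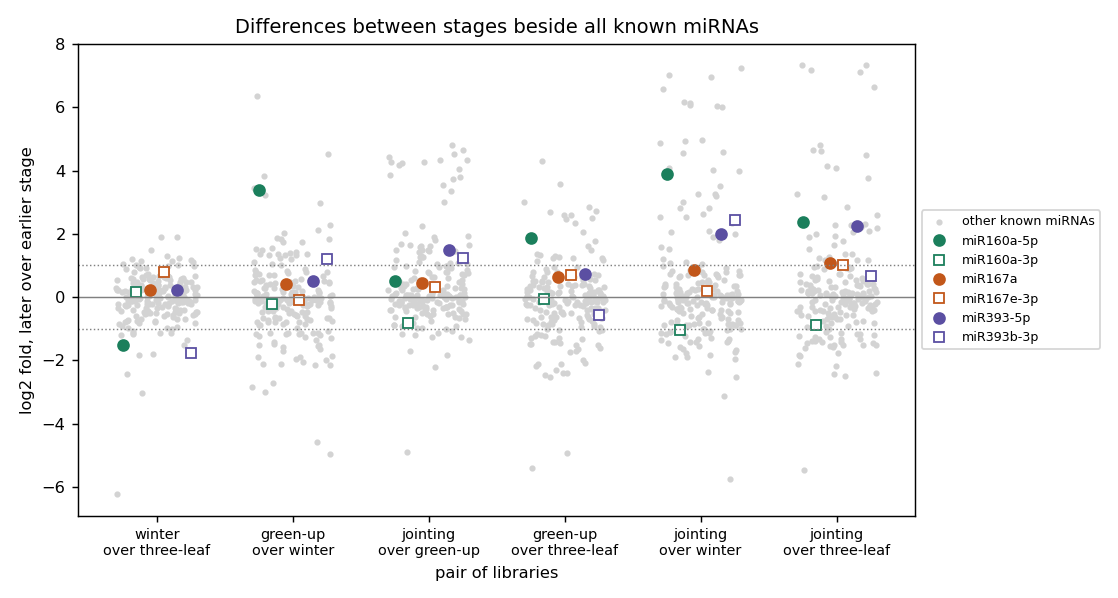
Log2 fold of the later over the earlier stage for the 6 pairs of libraries, with the 6 members in colour (guide strands filled, partner strands open) and the other known miRNAs listed in both libraries in grey; dotted lines mark 2-fold. In green-up over winter miR160a-5p stands at 3.38 and the other members between -0.23 and 1.20, and in jointing over green-up miR393-5p stands at 1.497.

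A ratio of the 5p to the 3p strand is formed within a library and does not depend on how libraries are scaled. For miR160a it was 4.04 in three-leaf leaves (3.73 to 4.39), 1.25 in winter leaves (1.14 to 1.38), 15.3 in green-up leaves (14.1 to 16.6) and 38.4 in jointing leaves (34.9 to 42.3). No interval overlapped another. The partner strand made up 2.54% of the reads of both strands at jointing, against 44.4% in winter. Between the lowest and the highest stage the ratio changed 30.6-fold. A name can pool sequence variants, so whether the reads of both strands came from the same hairpins was not tested.

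The ratio of miR167a to miR167e-3p was nearly flat beside this. It was 18.1 in three-leaf leaves (17.3 to 18.9), 12.1 in winter leaves (11.7 to 12.5), 17.4 in green-up leaves (16.8 to 18.01) and 19.0 in jointing leaves (18.5 to 19.6). The winter ratio was the lowest and its interval met no other, whereas those of the three-leaf stage overlapped those of both spring stages. For miR393-5p to miR393b-3p the ratio was 39.8 in three-leaf leaves (33.6 to 47.4), 159 in winter leaves (117 to 222), 98.1 in green-up leaves (79.4 to 124) and 117 in jointing leaves (103 to 133). The three-leaf ratio was apart from the rest, and the jointing interval overlapped those of winter and green-up. So winter was the lowest stage of the ratio for miR160 and miR167, but not for miR393.

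**Figure D3:**
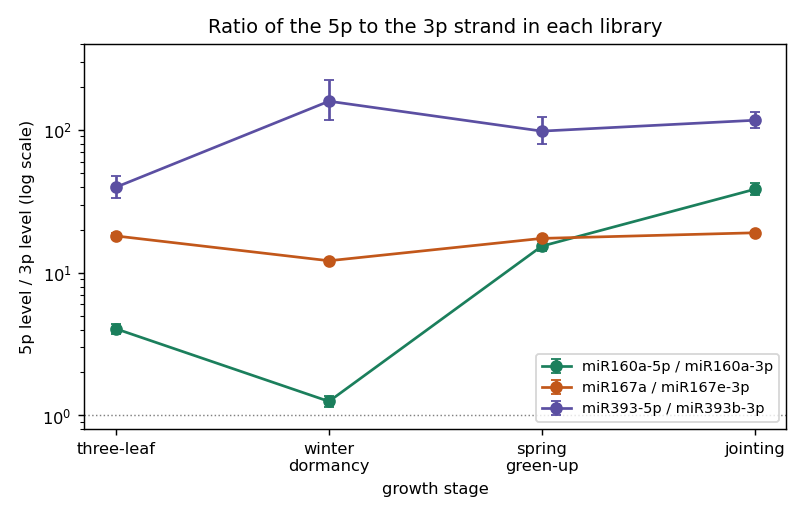
Ratio of the 5p to the 3p level within each library (log scale) at the 4 growth stages, 1 line per family; bars are 95% Clopper-Pearson intervals on estimated reads and the dotted line marks equal levels. The miR160 ratio lies at 38.4 at jointing and 1.25 in winter, and the miR167 ratio stays between 12.1 and 19.0.

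Elsewhere in the table, 17 pairs of names differ only in the strand, 5p or 3p, and 8 of them had both strands above 0 at all 4 stages. Their ratio changed by a median of 3.04-fold between its lowest and highest stage, and the widest change was 7.15-fold, for miR6224a. None of the 8 changed as widely as the 30.6-fold of miR160a. The pairs left out had a strand at 0 at 1 or more stages, so how widely their ratios changed was not measured. The change of 1.57-fold for miR167 was close to the narrowest of them (1.499-fold, miR9674b), and the 4.00-fold of miR393 lay above the median. With a pseudocount of 1 RPM the miR393 change was 3.08-fold, and its highest stage was then jointing.

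**Figure D4:**
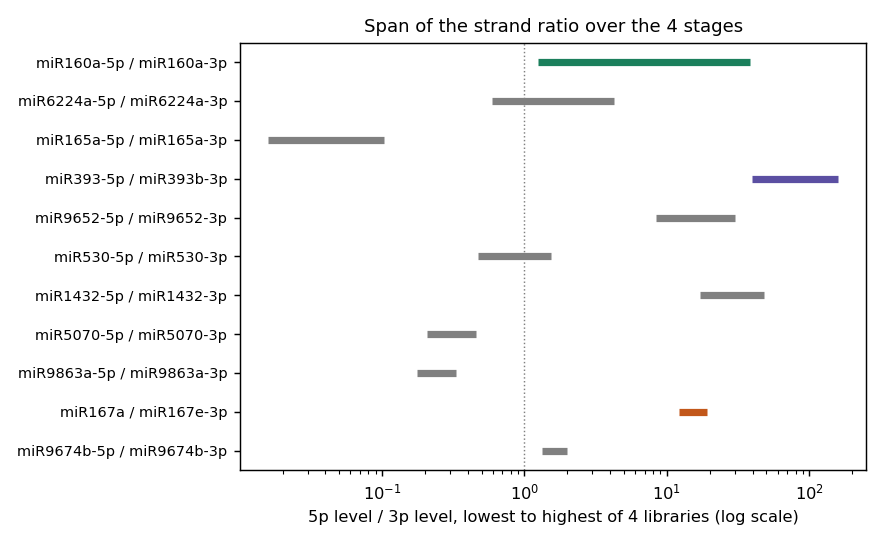
Span of the 5p to 3p ratio from the lowest to the highest of the 4 libraries (log scale), sorted by width with the widest at the top, for the 3 families in colour and for 8 other pairs of same-named strands in grey. The miR160a bar runs from 1.25 to 38.4, and the widest grey bar changes 7.15-fold.

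Summed over both strands, the miR160 family had 183.0 RPM in three-leaf leaves, 92.2 in winter leaves, 570.1 in green-up leaves and 783.5 in jointing leaves. Unlike miR160a-5p alone, the family sum was not called lower in winter, with 92.2 RPM against 183.0 RPM in three-leaf leaves just short of 2-fold. In rank among all known families miR160 was 24 in jointing leaves, against 50 in three-leaf leaves, miR167 was 5 against 11, and miR393 was 15 against 38. Of the 24 most conserved plant families, 21 were above 0 at all stages. Ordered by the fold of jointing over the three-leaf stage, miR393 was 4th (4.63-fold), miR160 was 5th (4.28-fold) and miR167 was 8th (2.10-fold) of these. The first places were held by miR394, miR172 and miR397, all at lower levels, the highest of them 134.0 RPM for miR172 at jointing.

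Together the 6 members summed to 2617.9 RPM in three-leaf leaves, 2985.6 in winter leaves, 4400.1 in green-up leaves and 6607.5 in jointing leaves. This was 1.37%, 1.32%, 2.27% and 3.75% of the summed RPM of known miRNAs. Of the 3989.6 RPM by which the jointing sum exceeded the three-leaf sum, miR167a gave 2268.2, miR393-5p 1003.3 and miR160a-5p 616.9. Within the sum miR167a held 65.3% at jointing against 78.1% at the three-leaf stage, while miR393-5p held 19.3% against 10.3%, and miR160a-5p held 11.6% against 5.60%. The guide strands against the receptors and the repressing ARFs thus took larger shares of the sum at jointing than at the three-leaf stage. At green-up miR160a-5p already held 12.2%, slightly more than at jointing, whereas miR393-5p still held 10.3%.

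For each guide strand the 3 known miRNAs with the most similar course were sought among 111 others that were above 0 at all stages and over 50 RPM at 1 or more, by the root mean square distance between log2 levels centred over the 4 libraries. Nearest to miR160a-5p were miR530-5p (distance 0.61), miR5139 (0.69) and miR9672a-3p (0.70). Its closest match, miR530-5p, had 77.0 RPM at the three-leaf stage, 42.5 in winter, 467.0 at green-up and 1316.3 at jointing, so it shared the winter low and the green-up step. The other guide strands were less like it, with miR393-5p 9th and miR167a 16th in this order.

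The nearest courses to miR167a were those of miR398a-3p (0.15), miR1117 (0.18) and miR1131 (0.24). The miR398 family is known for acting on copper/zinc superoxide dismutases. With miR393-5p another strand of that family, miR398f-5p, came first at a distance of 0.06, with 38.1, 45.5, 59.6 and 189.9 RPM in the order of the stages. It was followed by miR531 (0.11) and miR9672b (0.33). On this measure miR167a was 8th nearest to miR393-5p (0.49). With 4 libraries a short distance is easily met, and it says nothing of shared control.

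**Figure D5:**
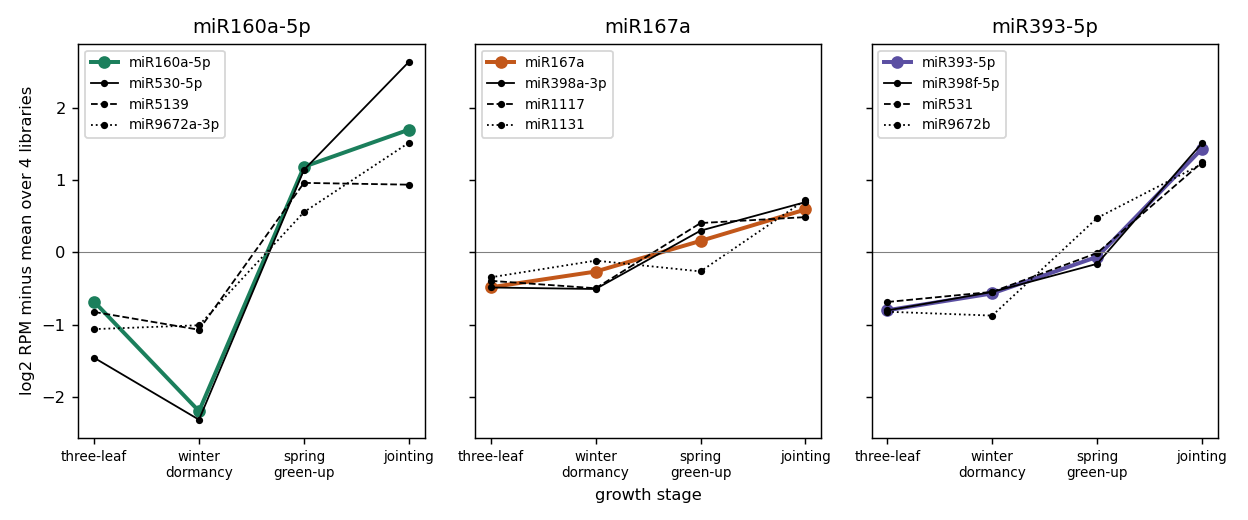
Course of each guide strand (colour) and of the 3 known miRNAs nearest to it (black), as log2 RPM minus the mean over the 4 libraries, at the 4 growth stages. The miR160a-5p and miR530-5p lines share the winter low, and miR398f-5p, at a distance of 0.06, runs along the miR393-5p line.

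Of other miRNA families tied to auxin, miR164 acts on NAC1-type transcription factors downstream of auxin, and miR390 starts the production of small RNAs against a further group of ARFs. The name miR847 was not found in the table. At jointing against the three-leaf stage, 1 of the 5 strands of miR164 and miR390 was called higher, where 24.8% of known miRNAs were, and 0 lower, where 14.6% were. It was miR390-3p, at 10.4 RPM against 4.0 RPM, while its guide strand miR390a-5p had 36.6 RPM against 52.3 RPM (0.70-fold). The guide strand miR164a was highest in winter, with 1110.5 RPM at the three-leaf stage, 2422.5 in winter, 2130.8 at green-up and 952.5 at jointing.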

How the data were processed

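Small RNA libraries of wheat leaves at 4 stages (RNA of 3 biological replicates pooled, 1 library per stage) were sequenced on a BGISEQ platform. The authors trimmed adaptors, kept reads of 18 to 30 nt, removed other RNA classes with SOAP and matched the rest to miRBase 21 plant miRNAs with BLAST, allowing up to 2 mismatches, so a name can pool sequence variants. The authors deposited RPM values, scaled to the mapped reads of each library and given to 1 decimal, too coarse to give back whole reads. Sequences came from the supplementary material.

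Repeated names with equal values were counted once. Before folds, values under 3 reads were raised to 3 reads (0.137 to 0.165 RPM). Intervals were exact Poisson or Clopper-Pearson intervals at 95% on estimated reads. No test across miRNAs is given with 1 library per stage. The calculation was tested on simulated data. Named miRNAs were all rows of the 3 families, the 3 nearest courses per guide strand and the miR164, miR390 and miR847 families. Members and lists were chosen with earlier results of these data known, and the 24 conserved families and the strand pairs were added after the values were seen. Alternatives were 2 pseudocounts, other level and fold limits (1 of them, the level over all 4 libraries, chosen after seeing the data), 3 other scalings, zeros as missing and family sums. Python 3.11.15, numpy 2.4.6, pandas 2.3.3, scipy 1.17.1, matplotlib 3.10.9 and RNAduplex of ViennaRNA 2.7.2 were used.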

Additional observations from a re-analysis of the deposited data

How the results depend on the processing

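Counts of members called kept within 1.5 times under both pseudocounts and with listed zeros treated as missing. Without a level filter 2 were called higher at green-up over winter, miR393b-3p being added, and so also with the level read over all 4 libraries, an alternative chosen after seeing the data. Of known miRNAs, 17.5% and 15.4% were called higher under these settings, in this order. Over 50 RPM, the counts were 1 lower in winter (miR160a-5p), 1 higher at jointing over green-up and 0 lower at jointing over winter. The shares of known miRNAs called the same way were 2.96%, 11.1% and 8.63%. With a fold of 3 these counts were 1, 0 and 0, where 5.66%, 21.6% and 11.1% of known miRNAs were called. The member lower in winter was then miR393b-3p, so neither member kept its winter call under both limits. At jointing over the three-leaf stage 2 were then higher, miR160a-5p and miR393-5p, where 22.1% were. With family sums, the first 3 comparisons gave 0, 1 and 0 of 3 families, where 7.27%, 26.6% and 14.5% of families were called. Scaled by the total of known miRNAs without miR168, 4 were called higher at green-up over winter and 4 at green-up over the three-leaf stage, and 0 were lower at jointing over winter, as also under the total with miR168 and under median-of-ratios. Without miR168 in the total, 19.9%, 20.2% and 10.5% of known miRNAs were called in these 3 comparisons. Lower at jointing over winter were 12.1% under the total with miR168 and 15.6% under median-of-ratios. The total without miR168 moves all green-up values by a log2 of 0.68 over winter, against 0.22 with miR168 in the total. The summed known miRNAs were 193668.5 RPM at green-up and 226286.3 RPM in winter, and miR168 made up 60.4% and 45.8% of them. The total with miR168 moves winter values by -0.25 over the three-leaf stage. Of 36 member folds, 4, 4 and 2 changed sign under the total, the total without miR168 and median-of-ratios, none of them a called fold. All 3 scalings left 5 of 6 members highest at jointing. The miR160 and miR167 strand ratios changed within their counting intervals under both pseudocounts. No paired analysis was possible because each stage has 1 library. Counting error is small except for miR393b-3p, and the spread between plants is not measured.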

Other observations

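The partner strands, which were set against the same candidates after their values were seen, had other nearest courses than their guide strands. Closest to miR393b-3p was miR827 (distance 0.28), a miRNA known for acting on phosphate transport genes, with 138.6 RPM at the three-leaf stage, 60.7 in winter, 89.8 at green-up and 310.7 at jointing. Its own guide strand miR393-5p was 12th (0.74). The nearest to miR160a-3p was miR7512 (0.18), and miR160a-5p was 101st of 112 (1.87). For miR167e-3p the guide strand miR167a was 4th of 111 (0.26), behind miR3950 (0.14).

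Of the 179 known miRNAs above 0 throughout, miR160a-5p was the only one that was over 2-fold lower in winter than at the three-leaf stage and also over 2-fold higher at green-up than at the three-leaf stage (0.559% of the 179). This pattern was defined after its values were seen, and being the only one depends on the 2-fold limit and on counting rows. The nearest course, miR530-5p, had 42.5 RPM in winter against 77.0 at the three-leaf stage, short of 2-fold, and 467.0 at green-up. Among family sums miR160 missed the pattern, with 92.2 RPM in winter against 183.0 at the three-leaf stage. The miR394 sum met it, with 6.0 RPM at the three-leaf stage, 2.9 in winter and 70.9 at green-up. The other 12 known miRNAs that were higher in each later library, beside miR167a and miR393-5p, included miR528-5p, a monocot miRNA, with 19.0, 44.4, 114.4 and 426.7 RPM in the order of the stages.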
